A study of Mus musculus with 6 samples.

Results

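The 10 genes of the circadian clock described here are Clock, Arntl, Per1, Per2, Per3, Cry1, Cry2, Nr1d1, Nr1d2 and Dbp, out of 36889 gene IDs. The data are polyA RNA-seq of samples labelled as mouse podocytes, the epithelial cells that wrap the capillaries of the kidney filter. The 10 genes were chosen by symbol for their place in the clock, with earlier results of these libraries known, so their differences between genotypes are given as a description. All 10 symbols matched a single Ensembl gene, and together the genes hold 203 of the 368092 exonic parts that were counted. Every one of the 10 passed the filter on low counts, and the lowest count of any of them in a library was 850.

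The KO group held 3 libraries labelled CD2BP2 Knockout and the WT group held 3 libraries labelled Wildtype, all on a C57BL/6 background. CD2BP2 is a protein of the U5 small nuclear ribonucleoprotein, part of the splicing machinery. Per the labels, the floxed allele came from R1/E embryonic stem cells, with a loxP site behind exon 3 of 7 and the neomycin cassette removed by a FLPO deleter strain. The labels name no Cre that acts in podocytes. Their treatment text instead describes CD2BP2flox/flox MxCre+ mice of 6 to 10 weeks and their littermates, given 300 µg poly(I:C), with macrophages grown from bone marrow, which goes against the stated podocyte source. Levels are given as CPM, a gene's count per library scaled to a common library size. All 10 podocyte markers examined were detected in every library, with a summed level of 20075 to 21974 CPM in KO and 22531 to 25433 CPM in WT. Markers of other cell types were present too, and 8 endothelial markers summed to 6400 to 6820 CPM in KO and 6990 to 7287 CPM in WT. Levels below are those of the whole sample. Cd2bp2 itself averaged 48.9 ± 1.93 CPM in KO and 61.2 ± 0.564 CPM in WT (SD, n = 3 each), summed over all its exonic parts. Its log2 fold change was −0.32 with an edgeR adjusted p of 0.0297. Most of its counts thus remained in the libraries labelled KO. Its parts were not examined one by one, so how much intact transcript remained is not shown.

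The time of day at which tissue was taken is not given for any library, so genotype and time of collection cannot be told apart for a gene whose transcript cycles. Nor do the labels say that each library of a group is a different animal, and the spread behind every p-value may therefore be technical. In bulk RNA, fewer cells of a type and less RNA per cell cannot be told apart. The libraries held between 186022084 and 255554573 counts over exonic parts, and no pair of replicates agreed to within counting noise.

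As background, CLOCK and ARNTL (BMAL1) pair as the positive arm of the clock and switch on genes that carry E-boxes, among them Per, Cry, Nr1d1, Nr1d2 and Dbp. PER and CRY proteins return to the nucleus and inhibit the pair, while the nuclear receptors NR1D1 and NR1D2 (REV-ERB alpha and beta) repress Arntl through ROR elements. DBP carries the rhythm to output genes through D-boxes. In mouse peripheral tissues, kidney included, the Arntl transcript peaks nearly opposite to those of Nr1d1 and Dbp, and the Per transcripts peak later than Nr1d1. Per1 is also a rapid target of glucocorticoid, cAMP and other outside signals.

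Promoter sequence is shown for the 3 genes on which the values below turn, Per1, Nr1d1 and Dbp, and for Per3, the gene with the most D-box matches. Each line holds the 250 bases before a RefSeq transcript start in GRCm38.p6, on the gene's strand, and capitals mark motif matches. The nearest GENCODE M21 start, on the same strand in each case, lay 1 base from that of Per1, 44 from that of Nr1d1, 22 from that of Dbp and 0 from that of Per3. The lines are Per1 at chr11:69098699-69098948 (+), the first of its RefSeq starts, Nr1d1 at chr11:98775378-98775627 (−), Dbp at chr7:45704997-45705246 (+) and Per3 at chr4:151044666-151044915 (−).
Per1: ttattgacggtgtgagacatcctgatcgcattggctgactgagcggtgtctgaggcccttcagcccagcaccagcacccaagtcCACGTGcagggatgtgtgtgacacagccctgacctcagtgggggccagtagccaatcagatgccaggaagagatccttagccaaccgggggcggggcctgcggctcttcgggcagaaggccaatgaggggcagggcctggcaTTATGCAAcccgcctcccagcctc
Nr1d1: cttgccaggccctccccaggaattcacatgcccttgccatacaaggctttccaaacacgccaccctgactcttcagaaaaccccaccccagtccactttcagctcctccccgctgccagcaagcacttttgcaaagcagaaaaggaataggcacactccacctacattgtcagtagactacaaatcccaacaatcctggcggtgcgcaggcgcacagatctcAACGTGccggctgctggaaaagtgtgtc
Dbp: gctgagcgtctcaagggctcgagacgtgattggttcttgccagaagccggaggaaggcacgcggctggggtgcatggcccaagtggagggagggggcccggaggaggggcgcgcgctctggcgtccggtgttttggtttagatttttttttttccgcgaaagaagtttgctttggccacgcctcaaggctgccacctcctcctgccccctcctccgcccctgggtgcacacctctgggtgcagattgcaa
Per3: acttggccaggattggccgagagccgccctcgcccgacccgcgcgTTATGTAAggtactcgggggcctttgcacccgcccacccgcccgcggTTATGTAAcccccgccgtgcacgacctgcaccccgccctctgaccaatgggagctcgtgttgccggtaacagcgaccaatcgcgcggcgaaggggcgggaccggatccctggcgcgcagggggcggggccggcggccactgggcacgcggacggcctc
Capitals in Per1 are an E-box and, nearer to the start, a D-box. Those in Nr1d1 are an E′-box on the opposite strand, those in Per3 are 2 D-boxes, and the Dbp window holds no match.

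RefSeq starts were at hand for 9 of the 10 genes, in 13 windows, and Per2 is named without a sequence. The E-box CACGTG was found in Per1 and Cry1 and in 6.02% of all 32851 promoters of the same length. Counted by gene, with any window of the gene, this was 6.86% of 27025 genes. The E′-box CACGTT, searched on both strands, was found in Cry1, Cry2 and Nr1d1 and in 3.85% of all promoters. The D-box TTATGNAA was found in Per1 and Per3 and in 3.07% of all promoters (3.63% of genes). Neither the core of the ROR element (TAGGTCA or TGGGTCA) nor the full cAMP response element TGACGTCA was found in a window of the 9 genes. The ROR core was found in 5.38% of promoters (6.15% of genes) and the cAMP element in 1.55% (1.77% of genes). These are matches of letters in a short window, and no binding was measured.

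Among the clock genes, Per1 was lower in KO, and Nr1d1 and Dbp stood higher in every KO library than in any WT library without passing the test across all genes. Of 19742 genes tested, 666 were called (3.37%) by edgeR's quasi-likelihood test at a Benjamini-Hochberg adjusted p under 0.05, of which 319 were higher in KO (1.62%) and 347 lower (1.76%). Of the 10 clock genes, none was called higher and 1, Per1, was called lower. At an unadjusted p under 0.05 there were 7 of 10, with 3 higher and 4 lower, against 4469 of all genes tested (22.6%). DESeq2 called 4 of the 10, Dbp, Nr1d1 and Nr1d2 higher and Per1 lower, where it called 15.9% of all genes to which it gave an adjusted p. Limma-voom called Per1 alone. The KO libraries all lay above the WT libraries for 2 of the 10, as for 14.1% of all genes, and all below for 3 of the 10, as for 14.8% of all genes. The median log2 fold change of the 10 was −0.08, beside 0.01 over all genes tested, since 5 lay above 0 and 5 below.

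**Figure D1:**
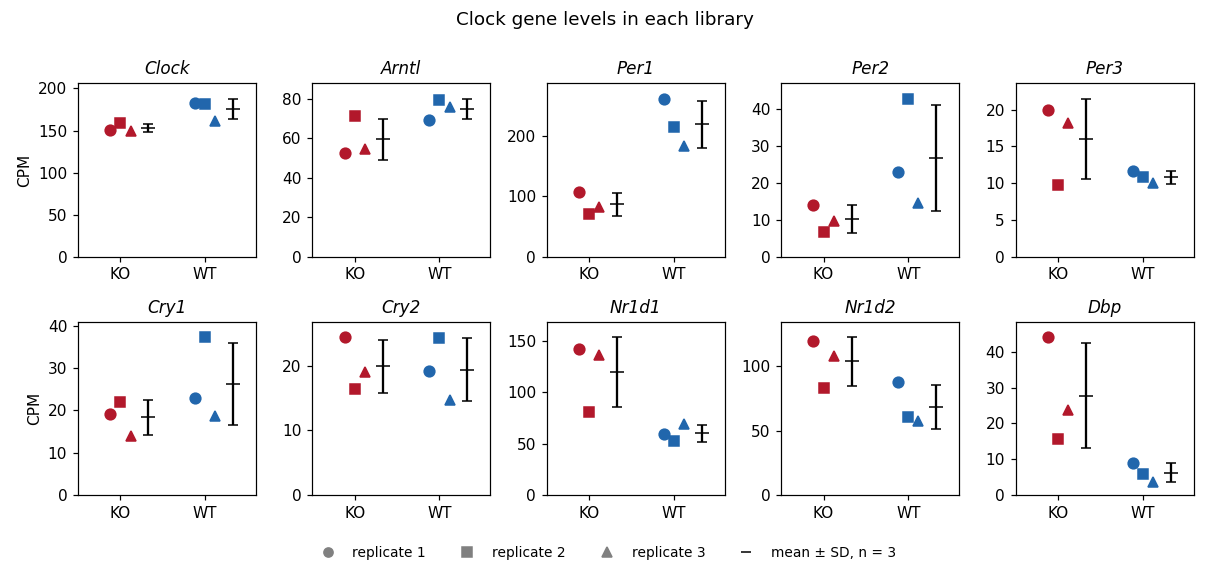
CPM of each of the 10 clock genes in every library, KO left of WT in each panel, with the mean and SD of the 3 libraries beside them (y axes start at 0 and differ between panels). The KO and WT points are fully apart for Clock, Per1, Per2, Nr1d1 and Dbp.

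**Figure D2:**
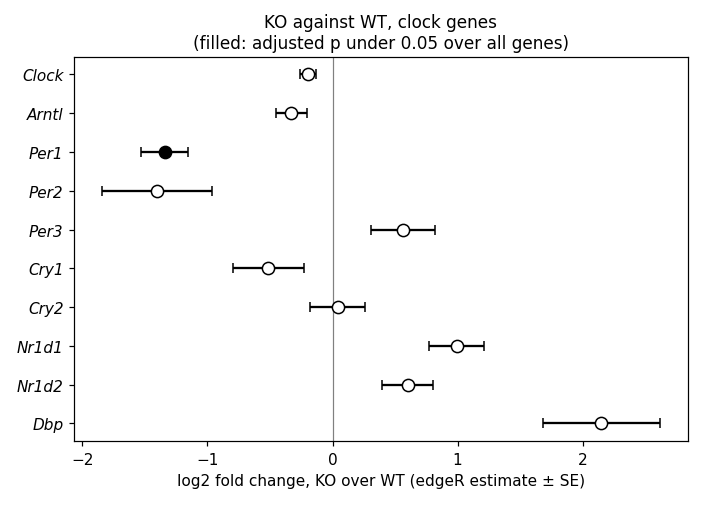
log2 fold change of KO over WT with its SE for each clock gene, from edgeR over all genes. Per1 is the 1 filled point (−1.34), Dbp lies farthest right (2.15) and Cry2 lies near 0.

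The positive arm stood slightly lower in KO. Clock, the partner that binds DNA with ARNTL, had 151, 159 and 149 CPM in the KO libraries, against 183, 181 and 162 CPM in the WT libraries. The groups did not overlap, and the highest KO library, KO 2, lay just under the lowest WT library, WT 3. The log2 fold change was −0.20 ± 0.063 (SE) with an adjusted p of 0.137 by edgeR's quasi-likelihood test. Arntl, which encodes BMAL1, had 52.3, 71.1 and 54.8 CPM in the KO libraries, against 69.0, 79.2 and 75.8 CPM in the WT libraries. KO 2 lay above WT 1, so the groups overlapped. Its log2 fold change was −0.33 ± 0.124 (SE), with an edgeR adjusted p of 0.186.

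Of the negative arm, Per1 fell. It encodes a PERIOD protein that, with CRY, inhibits the positive arm, and it had 107, 70.0 and 82.9 CPM in the KO libraries, against 261, 214 and 184 CPM in the WT libraries. The highest KO library lay well below the lowest WT library, and the WT mean was 2.54 times the KO mean. By edgeR's quasi-likelihood test the log2 fold change was −1.34 ± 0.187 (SE) with an adjusted p of 0.0288. The call held without KO 1 (adjusted p 0.0410) and without WT 3 (0.0441) by edgeR. It was lost without KO 2 (0.0686), KO 3 (0.0565), WT 1 (0.0823) or WT 2 (0.115), while the log2 fold change stayed between −1.53 and −1.20 over all 14 alternatives.

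Per2, a second PERIOD gene, had 14.1, 6.62 and 9.64 CPM in the KO libraries, against 23.0, 42.7 and 14.6 CPM in the WT libraries. The lowest WT library, WT 3, was only just above the highest KO library, KO 1, and the WT libraries spread 2.92-fold among themselves. Its log2 fold change was −1.40 ± 0.440 (SE) with an edgeR adjusted p of 0.136, and without WT 2 it was −0.89. Per3, the third PERIOD gene, stood the other way, with 19.9, 9.77 and 18.2 CPM in the KO libraries, against 11.7, 10.8 and 9.95 CPM in the WT libraries. KO 2 was below all WT libraries and the other two KO libraries were above them. The log2 fold change was 0.56 ± 0.256 (SE, edgeR adjusted p 0.253), and without KO 2 it was 0.81 with an adjusted p of 0.0457. The estimates for Per1 and Per3 thus had opposite signs, and whether the genes differ in their response was not tested.

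The cryptochromes, which bind the positive arm together with the PER proteins, overlapped between groups. Cry1 had 19.2, 21.8 and 13.9 CPM in the KO libraries, against 22.8, 37.2 and 18.6 CPM in the WT libraries, and WT 2 stood apart as the highest. The log2 fold change was −0.51 ± 0.284 (SE), with an edgeR adjusted p of 0.338. Cry2 had 24.4, 16.3 and 19.0 CPM in the KO libraries, against 19.1, 24.3 and 14.6 CPM in the WT libraries. Neither group was the higher one. Its log2 fold change was 0.04 ± 0.218 (SE, edgeR adjusted p 0.935), and the sign turned without KO 1 (−0.14) or without WT 3 (−0.13).

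The REV-ERB receptors, which repress Arntl, stood higher in KO. Nr1d1 had 142, 81.0 and 136 CPM in the KO libraries, against 59.1, 52.4 and 68.9 CPM in the WT libraries. Every KO library lay above every WT library, with KO 2 much nearer to WT than KO 1 and KO 3. The log2 fold change was 0.99 ± 0.221 (SE), a mean ratio of 1.99, and the edgeR adjusted p was 0.0675. Without KO 2 that adjusted p was 0.0390, and DESeq2 gave 1.1e-04. Nr1d2 had 120, 83.4 and 108 CPM in the KO libraries, against 88.0, 60.3 and 57.2 CPM in the WT libraries. The groups overlapped only in that KO 2 lay below WT 1. The log2 fold change was 0.60 ± 0.201 (SE) with an edgeR adjusted p of 0.154, and the DESeq2 adjusted p was 0.0233.

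Dbp, the PAR bZIP factor of the clock's output, showed the widest gap of the 10 genes. It had 44.0, 15.7 and 23.6 CPM in the KO libraries, against 9.06, 6.00 and 3.73 CPM in the WT libraries. Even the lowest KO library was above the highest WT library, yet the KO libraries spread 2.80-fold and the WT libraries 2.43-fold. The KO mean was 4.43 times the WT mean. The log2 fold change was 2.15 ± 0.466 (SE), and edgeR's adjusted p of 0.0640 missed the threshold while DESeq2 gave an adjusted p of 0.00215.

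Libraries differed in the same direction over several of the genes. Within KO, KO 1 was the highest for 7 of the 10 genes and KO 2 the lowest for 7 (Dbp, Nr1d1, Nr1d2, Per1, Per2, Per3 and Cry2). Within WT, WT 3 was the lowest for 8 of the 10. KO 2 was the highest KO library for the other 3 genes, Clock, Arntl and Cry1. The share of all genes with a given library highest or lowest is not given, so these counts have no background. The genes of one library share its RNA and its scaling, so the counts describe the libraries and carry no test.

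Ratios within a library do not depend on its scaling. The log2 ratio of Dbp to Arntl was −0.25, −2.18 and −1.21 in the KO libraries, against −2.93, −3.72 and −4.34 in the WT libraries. The groups did not overlap, and the means differed by 2.45. The log2 ratio of Nr1d1 to Arntl was 1.44, 0.19 and 1.31 in the KO libraries, against −0.22, −0.60 and −0.14 in the WT libraries, a difference of 1.30. Nr1d1 thus outweighed Arntl in each KO library and was outweighed by it in each WT library, in counts not corrected for length. For Per1 to Arntl the log2 ratio was 1.03, −0.02 and 0.60 in the KO libraries, against 1.92, 1.44 and 1.28 in the WT libraries, a difference of −1.01. With Clock as the denominator the differences were 2.31 for Dbp, 1.15 for Nr1d1 and −1.15 for Per1. Set against the positive arm, Dbp and Nr1d1 were thus high and Per1 low in KO. These ratios were computed from genes chosen with their levels known and carry no test.

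**Figure D3:**
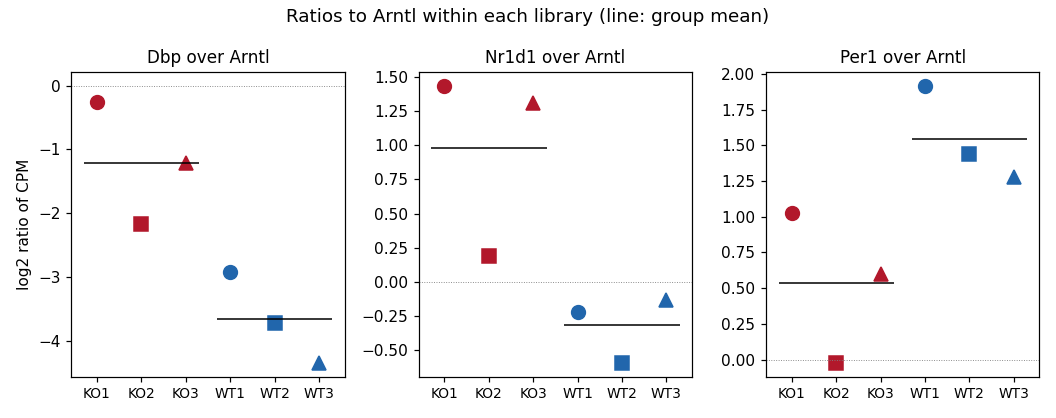
log2 ratio of the CPM of Dbp, Nr1d1 and Per1 to that of Arntl in each library, KO libraries left of WT libraries, with a line at each group's mean. The KO points lie above all WT points for Dbp and Nr1d1 and below them for Per1, and KO 2 is the lowest KO library in each panel.

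Set per kilobase of exon, Nr1d1 had the highest level of the 10 in KO, with 38.3 ± 10.7 CPM per kb (SD, n = 3). A read spanning several parts was counted in each of them, which raises genes cut into many short parts. The order of genes given here therefore depends on their parts as well, and is not a strict order of abundance. Nr1d2, Arntl, Clock and Per1 followed with means of 20.7, 20.3, 17.3 and 15.4 CPM per kb. Dbp came next at 9.43 CPM per kb, ahead of Cry1 at 6.08 and Cry2 at 3.15 CPM per kb. Per2 at 1.73 and Per3 at 1.66 CPM per kb were the lowest. The ranges of mean ± SD overlapped between neighbours in this order, except between Nr1d1 and Nr1d2, Cry1 and Cry2, and Cry2 and Per2. In WT, Per1 led with 39.0 ± 6.90 CPM per kb (SD, n = 3), before Arntl at 25.5 CPM per kb. Clock at 19.9, Nr1d1 at 19.2 and Nr1d2 at 13.7 CPM per kb came next. Cry1 at 8.69, Per2 at 4.59, Cry2 at 3.06, Dbp at 2.13 and Per3 at 1.12 CPM per kb closed the order in WT. Neighbours overlapped in mean ± SD here too, except Per1 and Arntl, Arntl and Clock, and Dbp and Per3. Per1 thus took place 5 in KO and place 1 in WT, Nr1d1 place 1 in KO and place 4 in WT, Nr1d2 place 2 in KO and place 5 in WT, and Dbp place 6 in KO and place 9 in WT.

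The exonic parts of a gene give the same measurement in pieces, and they share the gene's reads and libraries. A part is included here if it had at least 10 counts in 3 libraries. The share of all exonic parts without overlap was not computed, so the counts below have no background and carry no test. By gene, KO lay fully above WT for 14.1% of all genes and fully below for 14.8%. All 33 included parts of Per1 were lower in KO by their means, and for 32 of them every KO library lay below every WT library. All 11 parts of Dbp were higher in KO, with no overlap in any of them, and all 14 of Nr1d1 were higher, 11 with no overlap. All 24 included parts of Per2 and all 26 of Clock were lower, each with 13 that did not overlap, and all 13 of Cry1 were lower with 3. All 26 of Per3 and all 12 of Nr1d2 were higher, each with 5 that did not overlap. Arntl had 20 lower and 1 higher, and Cry2 had 10 lower and 6 higher.

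**Figure D4:**
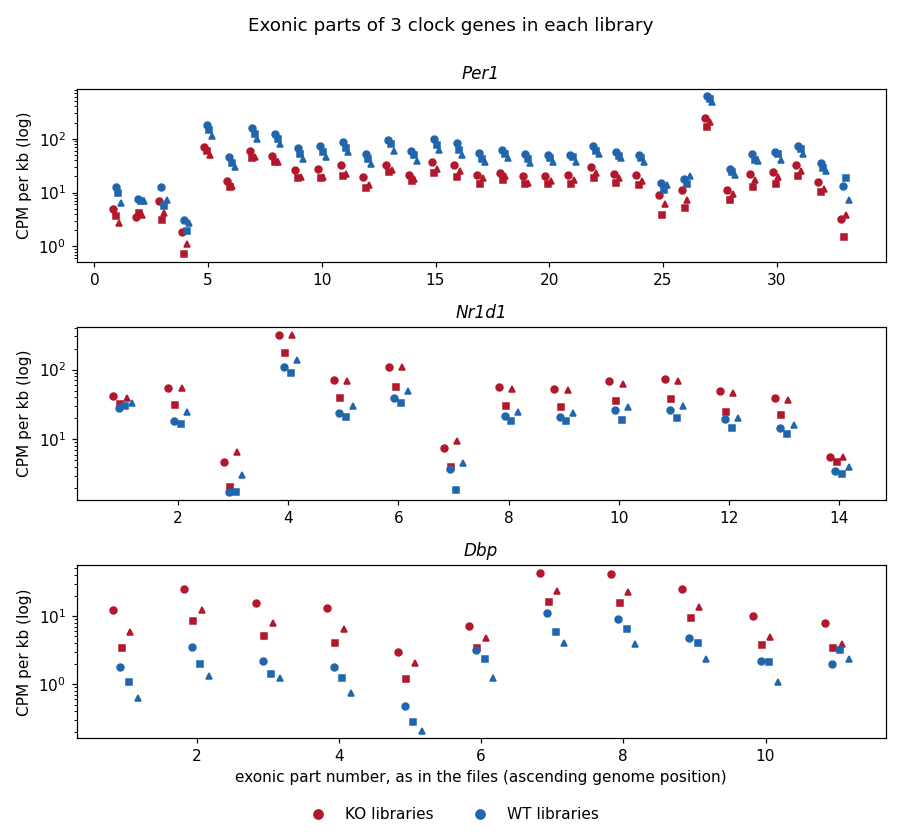
CPM per kb (log axis) of each exonic part of Per1, Nr1d1 and Dbp, numbered in genome order, with KO and WT libraries in different colours. The KO points lie below the WT points along Per1 and above them along Dbp and most of Nr1d1, where part 1 shows the smallest gap.

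The share of a gene's counts that each part took was tested with edgeR's diffSpliceDGE, since CD2BP2 belongs to the splicing machinery. Across all genes 58 of 15145 (0.383%) were called by Simes' method at an adjusted p under 0.05, and none of the 10 clock genes was. None of the 10 had an unadjusted Simes p under 0.05, and limma-voom's diffSplice also called none of them. Of 195 parts tested in these genes, 2 had an unadjusted p under 0.05. Part 6 of Arntl, 21 bases at 120424916 to 120424936 of chromosome 7 (NCBIM37), an alternative piece present in 1 transcript, had 53, 73 and 10 counts in KO libraries and 21, 21 and 15 counts in WT libraries. Its share differed by 0.91 on the log2 scale (unadjusted p = 0.00910, diffSpliceDGE), and KO 3 lay below every WT library. Part 1 of Nr1d1, the 488 bases at its 3′ end, differed by −0.47 (unadjusted p = 0.0193, diffSpliceDGE). In the other 8 genes the smallest unadjusted p of a part was 0.0914 to 0.649.

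Nr1d1, Dbp and Cry2 each share bases with a neighbouring gene, and the counts were treated as unstranded, so reads of both genes cannot be told apart there. The 3′ end of Nr1d1 overlaps that of Thra, a thyroid hormone receptor gene on the other strand. Part 1 of Nr1d1 had 20.1, 15.8 and 19.3 CPM in KO libraries, against 13.6, 14.7 and 16.0 CPM in WT libraries, while Thra as a whole had 162 ± 2.87 CPM in KO and 164 ± 7.03 CPM in WT (SD, n = 3 each). From parts that overlap no other gene, the log2 fold change of Nr1d1 was 1.16 with an edgeR adjusted p of 0.0642. Parts 8 to 11 of Dbp lie within Sphk2, a sphingosine kinase gene on the other strand that had a log2 fold change of 0.38 with an edgeR adjusted p of 0.0690, counted over the shared bases too. Without those parts the log2 fold change of Dbp was 2.22 with an edgeR adjusted p of 0.0655. Parts 10 and 15 of Cry2 overlap D930015M05Rik.

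Arntl and Dbp lie on chromosome 7 with Cd2bp2, at 13.9 and 81.4 Mb from it. Whether sequence carried along with the targeted allele bears on either gene was not tested.

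In the wider clock, edgeR called no gene among the repressors, PAR bZIP factors, kinases and ubiquitin ligases examined. Npas2, which can stand in for Clock, had a log2 fold change of −0.39 with an edgeR adjusted p of 0.167, and Rora, a receptor that acts on Arntl, had 0.23 with 0.296. Of the other repressors (Bhlhe40, Bhlhe41, Ciart, Timeless and Nfil3) none of 5 was called by edgeR or DESeq2, and none had an unadjusted p under 0.05. Nfil3, whose protein competes with DBP for D-boxes, had a log2 fold change of −0.35 and Timeless −0.24. Both PAR bZIP partners of Dbp had positive log2 fold changes without being called, Hlf 0.73 (edgeR adjusted p 0.260) and Tef 0.24 (0.489). Hlf had 21.5, 13.5 and 12.97 CPM in KO libraries, against 12.0, 11.5 and 5.48 CPM in WT libraries, which did not overlap.

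Of the kinases and ubiquitin ligases that set the lifetime of PER and CRY proteins, none of 9 was called by edgeR. DESeq2 called 1 lower, where it called 15.9% of all genes to which it gave an adjusted p. By edgeR, 6 had an unadjusted p under 0.05, of which 5 were lower, where 22.6% of all genes had such a p. The median log2 fold change of the 9 was −0.12 and their range was −0.22 to 0.47. The 2 with the smallest p were Csnk2a1, a casein kinase 2 subunit, at −0.14 (edgeR adjusted p 0.139), and Fbxl21, an F-box protein that acts on CRY, at 0.47 (0.142).

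Of 10 genes that cycle in many tissues, edgeR called 1 lower and none higher, DESeq2 called 3 higher and 1 lower, and their median log2 fold change was −0.11. Over all genes, edgeR called 1.76% lower and 1.62% higher, and DESeq2 called 15.9% of those with an adjusted p. Tsc22d3 (Gilz), a target of the glucocorticoid receptor as well, had 99.0, 85.3 and 66.5 CPM in KO libraries, against 239, 273 and 146 CPM in WT libraries. Its log2 fold change was −1.39 ± 0.252 (SE) with an edgeR adjusted p of 0.0449. That call held without WT 3 (0.0353) and was lost without any of the other 5 libraries, with adjusted p of 0.107 without KO 1, 0.113 without KO 2, 0.0792 without KO 3, 0.127 without WT 1 and 0.161 without WT 2. It was also lost with limma-voom (adjusted p 0.0509) and from the longest part alone, where the log2 fold change was −0.81 (edgeR adjusted p 0.261). Dtx4, a ubiquitin ligase gene, had 22.1, 18.8 and 16.0 CPM in KO libraries, against 13.8, 11.1 and 10.7 CPM in WT libraries, with a log2 fold change of 0.68 and an edgeR adjusted p of 0.0661.

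Signals that reach the clock from outside were examined as 2 more lists. Of 8 genes of the glucocorticoid receptor and its targets, which share Tsc22d3 with the list above and Sgk1 with the tubule list, edgeR called 2 lower and none higher, and the median log2 fold change was −0.79. Over all genes tested, edgeR called 1.76% lower. Fkbp5, a chaperone of that receptor and its target, had 19.8, 22.1 and 19.0 CPM in KO libraries, against 36.3, 94.5 and 69.8 CPM in WT libraries. Its log2 fold change was −1.72 ± 0.323 (SE) with an edgeR adjusted p of 0.0476. That call held without WT 1 (0.0335) and was lost without KO 1 (0.144), KO 2 (0.117), KO 3 (0.0891), WT 2 (0.148) or WT 3 (0.0866). It was also lost with limma-voom (adjusted p 0.0691) and from the longest part alone (edgeR adjusted p 0.0504). The receptor gene itself, Nr3c1, had 192 ± 8.81 CPM in KO and 191 ± 7.94 CPM in WT (SD, n = 3 each). Per1, a known target of the same receptor, was also lower in the KO libraries. Among the WT libraries, however, Per1 was highest in WT 1 (261 CPM), where Fkbp5 was lowest. It was lowest in WT 3 (184 CPM), as was Tsc22d3. The part of this signal in the level of Per1 was not tested.

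Of 9 transcripts that follow body temperature, a cue for peripheral clocks, edgeR called 6 lower and none higher, where it called 1.76% of all genes lower. The median log2 fold change of the 9 was −1.02. The 6 are the heat shock genes Hspa1a, Hspa1b, Hsph1, Dnajb1, Hsp90aa1 and Hspa8, with log2 fold changes of −2.78 to −0.93. Hspa1a and Hspa1b are near-identical copies whose reads the counting could split, and Hspa8 is counted together with Snord14e. Dnajb1, a co-chaperone gene, had 41.1, 36.7 and 43.5 CPM in KO libraries, against 79.7, 85.3 and 80.9 CPM in WT libraries, and its call held in all 6 fits without a library, with edgeR adjusted p up to 0.0452. The other 5 were lost in 3 or more of those fits, with edgeR adjusted p up to 0.115, and Hspa8 was lost from its longest part alone as well (0.217). Cirbp, a cold-inducible RNA-binding protein that supports the clock, was not called, with a log2 fold change of 0.23 and an edgeR adjusted p of 0.169. Rbm3 and Hsf1 of the same list were not called either, at −0.05 (edgeR adjusted p 0.814) and −0.05 (0.777).

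Of 9 genes reported to follow the clock in the kidney tubule, edgeR called 1 higher, Avpr2, where it called 1.62% of all genes higher. The median log2 fold change of the 9 was 1.07. Avpr2, the vasopressin receptor of the collecting duct, had 3.00, 3.77 and 2.27 CPM in KO libraries, against 1.22, 1.15 and 1.56 CPM in WT libraries, a log2 fold change of 1.20 with an edgeR adjusted p of 0.0489. Its call was lost without any 1 of the 6 libraries, with adjusted p of 0.142 without KO 1, 0.110 without KO 2, 0.0511 without KO 3, 0.148 without WT 1, 0.195 without WT 2 and 0.0695 without WT 3. It was lost too with limma-voom (adjusted p 0.0602) and from the longest part alone, at a log2 fold change of 0.68 (edgeR adjusted p 0.249). Edn1, which encodes endothelin 1, had a log2 fold change of 0.28 with an edgeR adjusted p of 0.152. Of the 9, 8 had a positive log2 fold change. Sgk1 had −0.26, with means of 1034 CPM in KO and 1234 CPM in WT. These genes were listed for the tubule, and the cells that gave their RNA here were not identified. All 12 of 12 markers of later nephron segments (loop of Henle, distal tubule, collecting duct) had positive log2 fold changes. Avpr2 and Aqp2 are in both lists, so the markers are not independent of this list. The markers summed to 545, 1460 and 273 CPM in KO libraries and 185 to 347 CPM in WT libraries. The part of tubule RNA in this list was not tested.

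**Figure D5:**
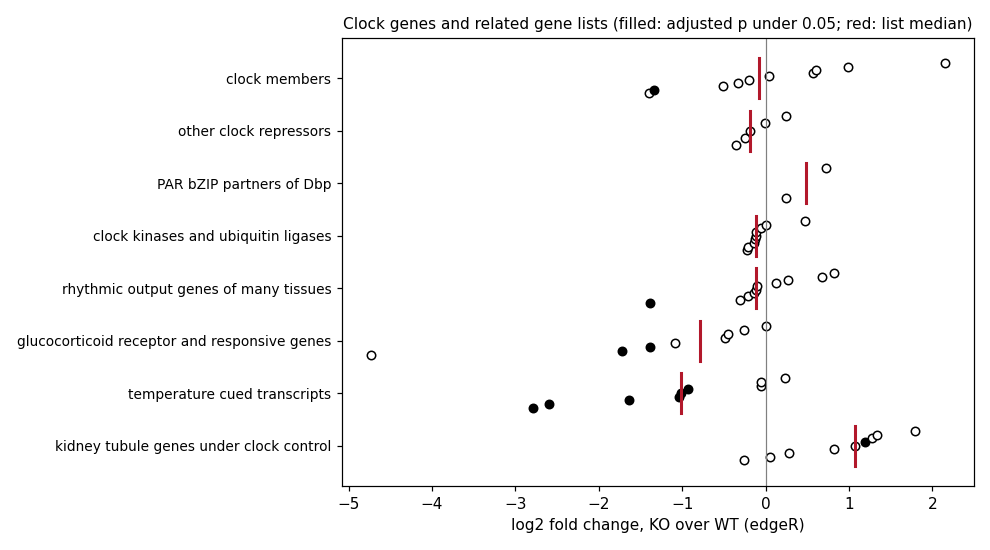
log2 fold change of KO over WT for the clock genes and 7 related lists, each point a gene, filled where edgeR's adjusted p was under 0.05, with the list's median in red. Most clock-related points lie near 0, the medians of the glucocorticoid (−0.79) and temperature (−1.02) lists lie left and that of the tubule list (1.07) lies right.

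Markers of other cell types were summed in the same way, and their groups were fully apart for macrophage and endothelial markers. The podocyte sums given above were fully apart too, and lower in KO. The summed level of 10 macrophage markers was 176 to 190 CPM in KO and 87.9 to 117 CPM in WT. EdgeR called 3 of the 10 higher, beside 1.62% of all genes tested. It also called 2 of 12 proximal tubule markers and 1 of 12 markers of later segments higher. Of 10 podocyte markers it called 1 lower, beside 1.76% of all genes tested. No marker of the other cell types was called. The sum of 12 proximal tubule markers was 1346 to 1818 CPM in KO and 1005 to 1583 CPM in WT. For 8 endothelial markers the sum was 6400 to 6820 CPM in KO and 6990 to 7287 CPM in WT. The 8 lymphocyte markers summed to 8.41 to 15.5 CPM in KO and 4.17 to 11.6 CPM in WT. The 8 mesangial and smooth muscle markers summed to 2526 to 3036 CPM in KO and 2715 to 2979 CPM in WT, and 4 erythroid markers to 17.1 to 60.5 CPM in KO and 6.98 to 110 CPM in WT. The sum of the later nephron segments was highest in KO 2, the KO library with the lowest Dbp and Nr1d1. The part of these cells in the levels of the clock genes was not tested.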

How the data were processed

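The deposited tables hold, per the file contents, the authors' counts of reads for each exonic part of the Ensembl 67 gene models, with the number and the fraction of bases covered and the part's length. Column 2 of the files names the build NCBIM37. GRCh37, a human build, and TopHat 1.4.1 appear in the submitters' processing notes. The name of the counter and its use of strand were not given in the sources used here. Counts were treated as unstranded. The deposited covered fraction was used only as the percent of a gene's bases covered.

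Counts were summed over a gene's parts, so a read spanning several parts entered more than once. Levels are CPM after TMM scaling. KO was compared with WT over all genes that passed filterByExpr, with edgeR 4.0.16 (quasi-likelihood, TMM, Benjamini-Hochberg at 0.05). Alternatives were DESeq2 1.42.0, limma 3.58.1 (voom), RLE scaling, other filters, parts that overlap no other gene, the longest part alone, a replicate block and each library left out. DESeq2 adjusted p given as NA stayed NA. Usage of parts was tested with diffSpliceDGE on parts that passed filterByExpr. The edgeR test of genes and diffSpliceDGE were each run on simulated counts, with outcomes not reported here. The alternatives, the ratios and the motif search were not.

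The members and lists were chosen with earlier results of these data known. Named were all 10 clock genes, from each other list the genes past the test and the 2 with the smallest p, Cd2bp2, the 5 genes most like Dbp, 1 of which is not reported here, and the part of each clock gene with the smallest usage p. Nr3c1, Cirbp, Rbm3, Hsf1, Thra, Sphk2, Klf15 and Zbtb16 were named after their values were seen. The marker symbols Emr1, Hbb-b1 and Hbb-b2 matched no gene ID. Promoters are from RefSeq (GRCm38.p6), and none of their coordinates was combined with those of the files.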

Additional observations from a re-analysis of the deposited data

How the results depend on the processing

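The count of genes called was 666, and it stayed within 1.5 times of that with RLE scaling (656), a filter at 1 CPM (720), no filter (551), limma-voom (491) and parts that overlap no other gene (602). It was 2766 with DESeq2, 424 from the longest part alone and 31 to 254 with a library left out. Of the 10 clock genes, the number called higher was 3 with DESeq2, 2 from the longest part alone (Dbp at 0.0301 and Nr1d1 at 0.0416, edgeR adjusted p) and 0 to 2 with a library left out. The number called lower was 0 to 1 with a library left out. Genes called for part usage were 58, 245 with limma's diffSplice and 35 to 71 with a library left out. The sign of Cry2 turned without KO 1 (−0.14) and without WT 3 (−0.13), with a range of −0.14 to 0.24 over the fits that left out a library, and the other 9 clock genes kept their sign under every alternative run. The difference of the arm ratios moved most for Dbp, which from the longest part alone gave 3.02 over Arntl beside 2.45, and 2.87 over Clock beside 2.31.

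With a replicate block the count of genes called was 82. Per1 (edgeR adjusted p 0.0401), Dnajb1 (0.0401) and Tsc22d3 (0.0414) kept their calls, and those of Hspa1a (0.0515), Hspa1b (0.0552), Hsph1 (0.0552), Hsp90aa1 (0.102), Hspa8 (0.0830), Fkbp5 (0.0893) and Avpr2 (0.127) ended. The labels do not say whether libraries with the same replicate number belong together. The correlations of same-numbered libraries' deviations from their group means were 0.12, −0.08 and 0.19, and so few values cannot decide it. The cause of these changes was not tested. With 3 libraries in a group and no collection time stated, phase and amplitude of a rhythm cannot be measured.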

Other observations

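Genes outside the lists whose log2(CPM + 0.1) followed Dbp most closely over the 6 libraries included Ncf4 (Pearson r = 0.991), E130208F15Rik (0.990), Plagl2 (0.990) and Trim13 (0.987), of 13137 genes ranked. Ncf4, a subunit of the phagocyte NADPH oxidase, had 4.58, 2.70 and 3.21 CPM in KO libraries, against 2.41, 1.90 and 1.44 CPM in WT libraries. None of these 4 was called by edgeR, and the smallest adjusted p among them was 0.0956, for Plagl2. Among the clock genes, Nr1d2 ranked 78 (r = 0.95), Nr1d1 504 (r = 0.86) and Per3 732 (r = 0.82), while Arntl ranked 12901 (r = −0.90). Of the 10 rhythmic output genes, 3 had a positive r and 7 a negative one, between 0.96 for Tspan4 and −0.77 for Herpud1. The PAR bZIP gene Hlf had r = 0.89. These values span 2 groups that differ in Dbp, share the libraries' scaling and describe 6 points.

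Zbtb16, a transcription factor gene that glucocorticoid induces, had 2.47, 1.19 and 2.40 CPM in KO libraries, against 4.59, 61.7 and 95.4 CPM in WT libraries. It was chosen after its values were seen. The WT libraries spread far more than the KO libraries, with WT 1 close to the KO libraries, and the log2 fold change of −4.74 had an edgeR adjusted p of 0.0675. Fkbp5 was likewise lowest in WT 1 among the WT libraries, whereas Tsc22d3 was lowest in WT 3. Per1 was highest in WT 1 and lowest in WT 3. Klf15, another such target, had 4.56, 7.27 and 3.48 CPM in KO libraries, against 11.3, 12.99 and 8.18 CPM in WT libraries (edgeR adjusted p 0.106).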
